A study of Mus musculus with 16 samples.

Results

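The genes described are the 7 mouse genes for the Jun and Fos subunits of AP-1, namely Jun, Junb, Jund, Fos, Fosb, Fosl1 and Fosl2. They were taken by gene symbol out of 18850 named genes, and each was read by 1 probe set. Expression was measured on 16 Affymetrix arrays of colon organoids of mice, small epithelial structures kept in ENR medium, which holds EGF, Noggin and R-spondin. The 4 groups of 4 arrays were mutant organoids treated for 12 h with the recombinant cytokine tumour necrosis factor alpha (TNFa, 50 ng/ml), mutant organoids without TNFa, wild-type (WT) organoids given the same TNFa, and WT organoids without it. The mutant samples are titled ATF2/7 fl. Their genotype label has a floxed Atf2 and an Atf7 knockout, their descriptions and the series text have the reverse, and no label names a Cre or says that a floxed allele was recombined, so they were kept as 1 genotype. Strain and age are not given in the sources used here. No label ties the numbers 1 to 4 to separate animals or cultures, so the p-values reflect only how these samples spread, which may be technical.

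AP-1 is a transcription factor made of pairs of basic leucine zipper proteins. Jun, Junb and Jund can pair with each other, with Fos family proteins or with ATF proteins such as ATF2, whereas Fos proteins need a Jun partner to bind DNA. TNFa activates the stress kinases JNK and p38. JNK phosphorylates Jun and ATF2, and p38 phosphorylates ATF2. Pairs of Jun with ATF2 are known to bind the promoter of Jun itself. In the gut, Jun is known for its part in epithelial proliferation and tumour growth.

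The promoters of the 3 members that were called in any comparison are shown first. Whether the altered alleles of the mutant act at these promoters was not tested. Of the 7 genes, 6 had an entry in the RefSeq promoter table (build GRCm38.p6), and the 250 bases before the annotated start were searched on both strands for 6 motifs: TGAGTCA (the classical AP-1 site), TGACGTCA (the cyclic AMP response element), TGACATCA and TTACCTCA (the 8-base variants known from the Jun promoter), a kappaB form (GGGA, any base, TTTCC) and the CArG box, the SRF site. Capitals mark a motif, and each strand is read in the direction of the gene.
Jun, chr4:95052223-95052472, minus strand: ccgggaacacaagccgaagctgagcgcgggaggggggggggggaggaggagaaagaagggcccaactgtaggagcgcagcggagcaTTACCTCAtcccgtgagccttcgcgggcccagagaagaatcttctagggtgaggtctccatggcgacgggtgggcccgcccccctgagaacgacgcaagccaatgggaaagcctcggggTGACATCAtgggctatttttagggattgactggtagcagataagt
Junb, chr8:84978749-84978998, minus strand: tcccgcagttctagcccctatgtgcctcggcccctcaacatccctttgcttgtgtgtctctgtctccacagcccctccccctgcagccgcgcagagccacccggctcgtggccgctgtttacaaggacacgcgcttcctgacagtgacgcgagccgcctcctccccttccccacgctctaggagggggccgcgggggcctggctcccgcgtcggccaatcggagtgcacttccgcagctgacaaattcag
Jund, chr8:70697489-70697738, plus strand: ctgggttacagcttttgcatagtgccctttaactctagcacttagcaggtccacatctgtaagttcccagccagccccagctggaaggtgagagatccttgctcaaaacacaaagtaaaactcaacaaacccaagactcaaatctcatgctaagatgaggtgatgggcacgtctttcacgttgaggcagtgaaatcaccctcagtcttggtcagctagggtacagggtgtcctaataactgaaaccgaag

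The Jun window held TGACATCA from 45 to 38 bases and TTACCTCA from 164 to 157 bases before the start, and they did not overlap. Among 32851 promoter windows of the same length, 2.93% held TGACATCA and 0.728% held TTACCTCA. None of the 6 motifs was found in the windows of Junb, Jund, Fos, Fosb and Fosl2. The other shares were 4.46% for TGAGTCA, 1.55% for TGACGTCA, 0.356% for the kappaB form and 1.47% for the CArG box. Because TGACATCA and TTACCTCA were taken from the known Jun promoter, finding them there was fixed in advance. The shares do not make that a result that sets Jun apart from the other members. These matches are descriptions of letters and say nothing of what was bound in these organoids.

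All 7 genes lay above the 40th percentile of their array (6.40 to 6.56 log2) on all 16 arrays, so all were among the 11766 genes tested. Epithelial markers were bright, with 11 of 11 measured above that range in every group and Epcam between 11.25 and 11.40 log2. Their mean level per array was 11.38 to 11.46 in mutant + TNFa, 11.36 to 11.41 in mutant, 11.39 to 11.54 in WT + TNFa and 11.44 to 11.47 in WT. Of the fibroblast and muscle list 4 of 11 genes passed the filter, Col1a1 among them (7.76 to 8.27 log2), while 0 of 12 immune and 0 of 8 endothelial and glial genes did. Ptprc, the pan-leukocyte gene, lay between 5.96 and 6.65 log2, and Pecam1, an endothelial gene, between 4.85 and 5.66. Atf2 mRNA had 10.10 to 10.13 log2 in mutant + TNFa, 10.12 to 10.18 in mutant, 10.15 to 10.20 in WT + TNFa and 10.03 to 10.33 in WT. It was not called in either genotype comparison (adjusted p = 0.729 with TNFa and 0.942 without), although under TNFa the groups did not overlap, and which exons its probe set reads was not known here. No probe set was named Atf7. Array WT + TNFa 2 had the lowest mean correlation with the other arrays of its group, 0.988, while the other arrays had 0.993 to 0.996 with theirs.

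**Figure D1:**
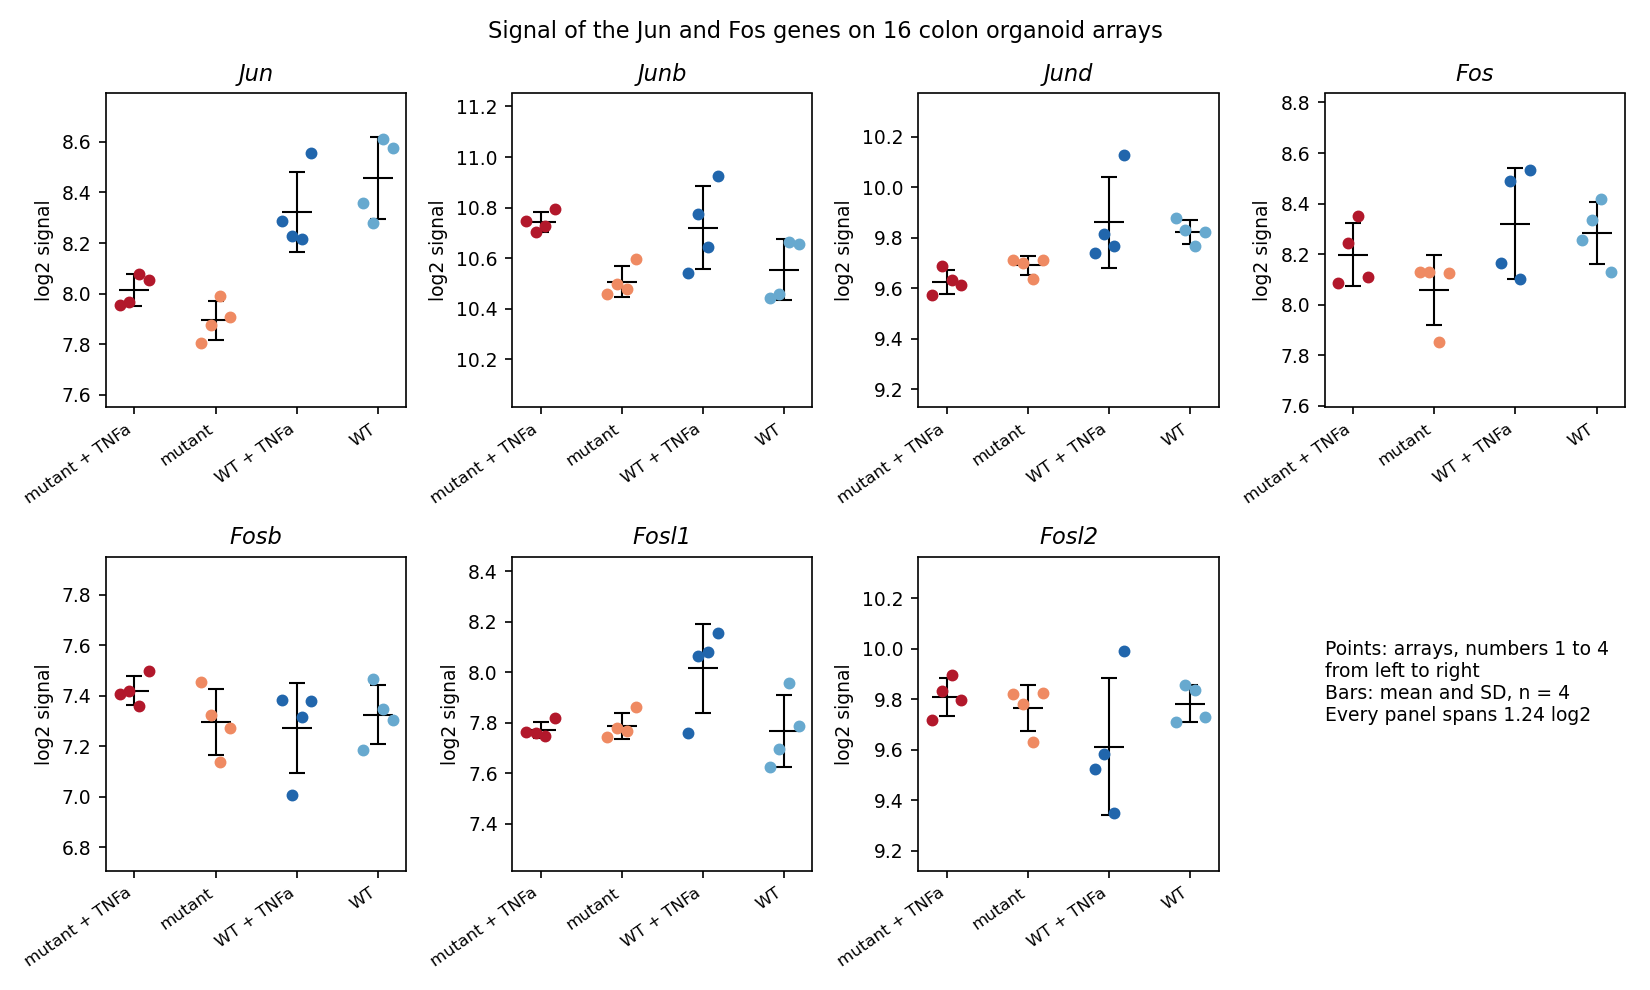
Log2 signal (vertical axes) of the 7 Jun and Fos genes on every array, with the mean and SD of each group (n = 4). Jun is lower on every mutant array than on every WT array with the same TNFa state, and WT + TNFa has the widest spread of the 4 groups for every gene except Jun.

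Jun, the strongest activator among the Jun proteins and the best known JNK substrate, was lower in mutant organoids. Without TNFa its log2 signals were 7.80, 7.88, 7.99 and 7.91 in mutant, against 8.36, 8.28, 8.61 and 8.57 in WT. The highest mutant array lay below the lowest WT array, so the groups did not overlap. Jun averaged 7.89 ± 0.077 log2 in mutant and 8.46 ± 0.16 in WT (SD, n = 4 each). The difference was -0.56 log2 (SE 0.085, 95% interval -0.74 to -0.38), a signal 1.48-fold lower in mutant, with adjusted p = 8.57e-04. By p it was number 64 of the 11766 genes. Of the 7 genes Jun alone passed, and 2.48% of all tested genes did (1.48% lower, 1% higher). In bulk RNA, fewer cells that express Jun and less Jun RNA per cell cannot be told apart.

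With TNFa the genotype difference in Jun had the same sign and did not pass the test. The signals were 7.96, 7.97, 8.08 and 8.05 log2 in mutant + TNFa, against 8.29, 8.23, 8.22 and 8.56 in WT + TNFa. The groups again did not overlap, although the nearest arrays were 0.14 log2 apart and WT + TNFa 4 stood above its group. The difference was -0.31 log2 (SE 0.085, 95% interval -0.49 to -0.13, adjusted p = 0.067). Without WT + TNFa 4 it was -0.23 log2 with adjusted p = 0.155. The same difference passed in 3 of 25 alternatives, the replicate block by number (adjusted p = 0.0417), the stricter filter (0.0492) and array weights (0.0328). Under TNFa 0 of the 7 genes passed in limma, while 2.69% of all tested genes did (1.13% lower, 1.56% higher). At an unadjusted p under 0.05 there were 3 of 7, Jun, Jund and Fosl1, against 13.6% of all genes.

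Averaged over both TNFa states, Jun was 0.43 log2 lower in mutant (SE 0.060, 95% interval -0.56 to -0.31, adjusted p = 1.87e-04). The average reuses the arrays of both single comparisons and is no separate evidence. It called 2 of the 7 genes, Jun and Jund, both lower in mutant, where 5.88% of all tested genes were called (3.36% lower, 2.52% higher). The order of the Jun means was WT, WT + TNFa, mutant + TNFa and mutant, from high to low. WT and WT + TNFa overlapped, and so did mutant + TNFa and mutant, with no called difference within either pair.

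Cdx2, a homeobox factor of intestinal identity from the epithelial list, was also lower in mutant without TNFa. It had 8.46 ± 0.15 log2 in mutant and 8.99 ± 0.13 in WT (SD, n = 4 each), a difference of -0.52 (SE 0.11, adjusted p = 0.0158). It was the 1 gene of 11 in that list to pass without TNFa, against 2.48% of all tested genes. With TNFa 0 of the list passed, and Cdx2 had 8.42 ± 0.074 log2 in mutant + TNFa and 8.83 ± 0.28 in WT + TNFa. Within each TNFa state the genotypes did not overlap for Cdx2. With TNFa the highest mutant + TNFa array had 8.51 log2 and the lowest WT + TNFa array 8.58. With both TNFa states pooled the genotypes overlapped for Cdx2, unlike Jun. The Cdx2 difference averaged over TNFa states was -0.47 log2 (SE 0.080, adjusted p = 0.00132). Cdx2 was the 1 gene of 11 called there, against 5.88% of all tested genes. The part of Cdx2 in the Jun difference was not tested.

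Jund, the member that most cells express steadily, was lower in mutant by a smaller amount. Under TNFa its signals were 9.57, 9.69, 9.63 and 9.61 log2 in mutant + TNFa, against 9.74, 9.81, 9.77 and 10.13 in WT + TNFa. The groups did not overlap, and 1 array, WT + TNFa 4, was far above the rest. Without TNFa they were 9.71, 9.70, 9.63 and 9.71 in mutant, against 9.88, 9.83, 9.77 and 9.82 in WT, again with no overlap. The differences were -0.23 (SE 0.072, adjusted p = 0.108) with TNFa and -0.13 (SE 0.072, adjusted p = 0.45) without. Their average, -0.18 log2 (SE 0.051, 95% interval -0.29 to -0.077), had adjusted p = 0.0401. That call was lost in 13 of 24 alternatives, with adjusted p up to 0.0862, and 11 of these 13 left out a single array, every array of mutant + TNFa and of mutant among them and WT 1, WT 2 and WT 4. With the replicate block by number adjusted p was 0.055. Under TNFa the difference fell to -0.15 log2 without WT + TNFa 4 (adjusted p = 0.175).

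Junb, which often opposes Jun and is itself an immediate-early gene, did not pass in either genotype comparison. The mutant-minus-WT difference was 0.022 log2 with TNFa (95% interval -0.14 to 0.18) and -0.048 without (-0.21 to 0.11). Differences as large as that of Jun without TNFa lie outside both intervals.

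**Figure D2:**
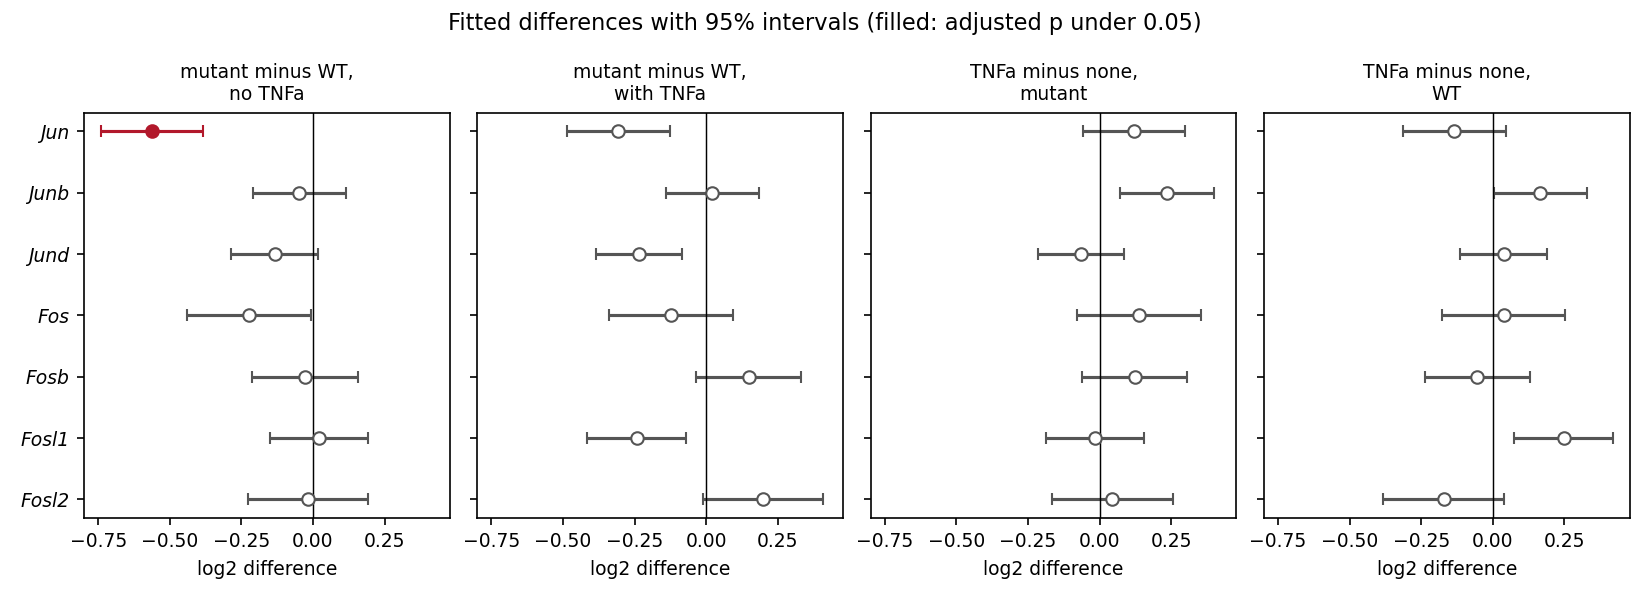
Fitted log2 differences (horizontal axes) with 95% intervals for the 7 genes in 4 comparisons, each tested group minus the group it was set against. Jun without TNFa, at -0.56, is the only filled point, and the TNFa intervals of Junb lie above 0 in both genotypes.

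Among the Fos genes no genotype difference passed. Fos, the founding member and a classical immediate-early gene, had 8.13, 8.13, 7.85 and 8.13 log2 in mutant, against 8.25, 8.34, 8.42 and 8.13 in WT. The mutant array 3 was far below the others, and the groups overlapped. The difference was -0.22 log2 (SE 0.10, unadjusted p = 0.043, adjusted p = 0.35) without TNFa and -0.12 (SE 0.10, adjusted p = 0.653) with it. Fosb, a close relative of Fos, averaged 7.42 ± 0.057 log2 in mutant + TNFa, 7.30 ± 0.13 in mutant, 7.27 ± 0.18 in WT + TNFa and 7.33 ± 0.12 in WT (SD, n = 4 each), and the groups overlapped in every comparison. It differed by 0.15 log2 with TNFa (95% interval -0.035 to 0.33) and by -0.028 without (-0.21 to 0.16). Fosl2, which encodes Fra-2, had 9.72, 9.83, 9.90 and 9.80 log2 in mutant + TNFa, against 9.52, 9.58, 9.35 and 9.99 in WT + TNFa, where 3 arrays lay below all mutant + TNFa arrays and WT + TNFa 4 above them all. It differed by 0.20 with TNFa (95% interval -0.013 to 0.41, adjusted p = 0.402) and by -0.018 without (-0.23 to 0.19). The Fosl2 difference under TNFa depended on single arrays, being 0.32 log2 (adjusted p = 0.0268) without WT + TNFa 4 and 0.11 (adjusted p = 0.666) without WT + TNFa 3.

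Fosl1, which encodes Fra-1, lacks the strong activation domain of Fos and is itself a known AP-1 target. Its signals were 7.76, 7.76, 7.75 and 7.82 log2 in mutant + TNFa, against 7.76, 8.07, 8.08 and 8.16 in WT + TNFa. Of the WT + TNFa arrays 3 lay above all mutant + TNFa arrays, and WT + TNFa 1 lay among them. The difference was -0.24 log2 (SE 0.082, 95% interval -0.42 to -0.070, adjusted p = 0.157), and -0.33 with adjusted p = 0.0207 without WT + TNFa 1. Without TNFa the genotypes differed by 0.021 log2 (95% interval -0.15 to 0.19).

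TNFa for 12 h moved no Jun or Fos gene past the threshold within either genotype. No other time was measured, so an earlier change could not be seen, and the arrays read RNA, not protein or its phosphorylation. In mutant organoids 0 of 7 were called in limma, against 5.98% of all tested genes (3.51% higher, 2.47% lower), and 1 of 7, Junb, had an unadjusted p under 0.05, against 15.7%. In WT organoids 0 of 7 were called, against 10.8% (5.03% higher, 5.75% lower), and 2 of 7, Fosl1 and Junb, had an unadjusted p under 0.05, against 23.5%. The median change of the 7 was 0.12 log2 in mutant and 0.037 in WT, beside 0.0073 in mutant and 0.0096 in WT over all tested genes. The 95% intervals of the 7 genes lay between -0.22 and 0.40 log2 in mutant and between -0.38 and 0.42 in WT.

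Junb had a higher mean with TNFa in both genotypes and passed the test in their average. Its signals were 10.75, 10.70, 10.73 and 10.80 log2 in mutant + TNFa, against 10.46, 10.50, 10.48 and 10.60 in mutant. Those groups did not overlap, and the change was 0.24 log2 (SE 0.077, 95% interval 0.073 to 0.40, adjusted p = 0.0942). Without WT + TNFa 4, which adds only to the shared spread, adjusted p was 0.0498. In WT + TNFa they were 10.54, 10.78, 10.64 and 10.92, against 10.44, 10.46, 10.66 and 10.65 in WT. There the groups overlapped, and the change was 0.17 (SE 0.077, 95% interval 0.0029 to 0.33, adjusted p = 0.202). Without WT + TNFa 4 it was 0.098 (adjusted p = 0.424). Averaged over genotypes Junb rose by 0.20 log2 (SE 0.055, 95% interval 0.085 to 0.32, 1.15-fold), with adjusted p = 0.0177, and the call held in all 25 alternatives run. It was the 1 of 7 called in that average, where 15% of all tested genes were called (7.79% higher, 7.22% lower).

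In WT the TNFa difference with the smallest adjusted p among the 7 was that of Fosl1. The signals were 7.76, 8.07, 8.08 and 8.16 log2 in WT + TNFa, against 7.63, 7.70, 7.96 and 7.79 in WT, and 3 of the TNFa arrays lay above all WT arrays. The change was 0.25 log2 (SE 0.082, 95% interval 0.075 to 0.42, adjusted p = 0.063). It passed in 6 of 26 alternatives, among them the replicate blocks (adjusted p = 0.0471 by number, 0.0464 by genotype and number) and those without WT + TNFa 1 (0.33 log2, adjusted p = 0.00611) and without WT 3 (0.31, adjusted p = 0.0225). In mutant the Fosl1 change was -0.016 (95% interval -0.19 to 0.16).

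Jun had TNFa changes of opposite sign, 0.12 log2 in mutant (95% interval -0.059 to 0.30) and -0.13 in WT (-0.31 to 0.045), and neither passed. Fosl2 differed by 0.044 in mutant and by -0.17 in WT (adjusted p = 0.332). In WT it was -0.30 (adjusted p = 0.0145) without WT + TNFa 4 and -0.084 (adjusted p = 0.663) without WT + TNFa 3. Jund, Fos and Fosb differed by -0.064, 0.14 and 0.12 log2 in mutant and by 0.037, 0.037 and -0.054 in WT.

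The difference of the TNFa effects, mutant minus WT, passed for 0 of the 7 genes in limma, and for 1 gene, 0.0085% of all tested. At an unadjusted p under 0.05 there were 2 of 7, against 7.27% of all genes. These were Fosl1 at -0.26 log2 (SE 0.12, unadjusted p = 0.0357, adjusted p = 0.656) and Jun at 0.25 (SE 0.12, unadjusted p = 0.0496, adjusted p = 0.682). A different TNFa response of Jun or Fos genes between the genotypes was therefore not shown.

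On WT + TNFa 4 all 7 members lay above their group mean, by 0.11 log2 for Fosb up to 0.38 for Fosl2, and by 0.22 on average. No other array had all 7 on the same side. After each group mean was subtracted, 18 of the 21 pairs of members (85.7%) correlated positively over the 16 arrays, beside 51.1% of all pairs of tested genes. Without WT + TNFa 4, an alternative chosen after seeing the data, 11 of 21 (52.4%) did, beside 51.3% of all pairs. That array was chosen because all 7 lay high on it, so leaving it out tends to lower the count. No other array was left out in this way. With the group means subtracted, the r over 16 arrays were 0.85 for Junb with Fosl1 and 0.83 for Jund with Fosl2. They were 0.81 for Fos with Fosl2 and 0.73 for Jun with Junb. Without that array they were 0.84 for Junb with Fosl1, 0.34 for Jund with Fosl2, 0.87 for Fos with Fosl2 and 0.56 for Jun with Junb. Jun with Jund had a within-group r of 0.40 over 16 arrays and -0.52 without WT + TNFa 4. These are descriptions, since all members share the arrays and their RNA.

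**Figure D3:**
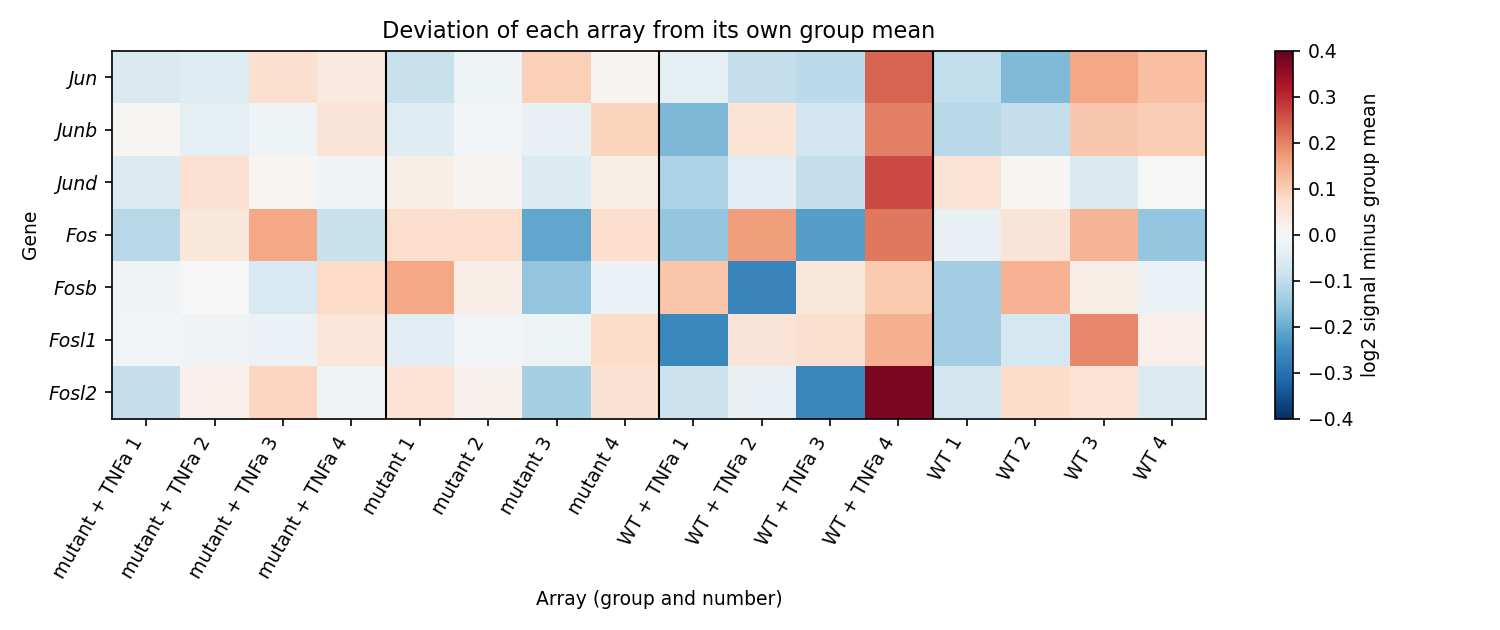
Log2 signal of each gene (rows) on each array (columns) minus the mean of the array's own group, in colour. The column of WT + TNFa 4 is above its group mean for all 7 genes, and mutant 3 is low for Fos at 7.85 log2.

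Over the 16 arrays, the tested genes with the profiles most like Jun were Slc13a2, a sodium-coupled dicarboxylate transporter (r = 0.92), Rhob, a small GTPase (r = 0.92), and Steap4, a metalloreductase (r = 0.92). The most opposite was Fbln1, an extracellular matrix glycoprotein (r = -0.89). Slc13a2 averaged 8.33 log2 in mutant + TNFa, 8.07 in mutant, 8.60 in WT + TNFa and 8.96 in WT. Rhob averaged 9.52 in mutant + TNFa, 9.38 in mutant, 9.68 in WT + TNFa and 9.84 in WT. Like Jun, both had their lowest mean in mutant and their highest in WT. Steap4 averaged 7.64 in mutant and 8.90 in WT, and Fbln1 7.56 in mutant and 6.99 in WT. Within groups their r with Jun was 0.50 for Steap4, 0.63 for Slc13a2 and 0.69 for Rhob. These genes were picked for their likeness out of 11766, so the r are descriptions with no test.

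**Figure D4:**
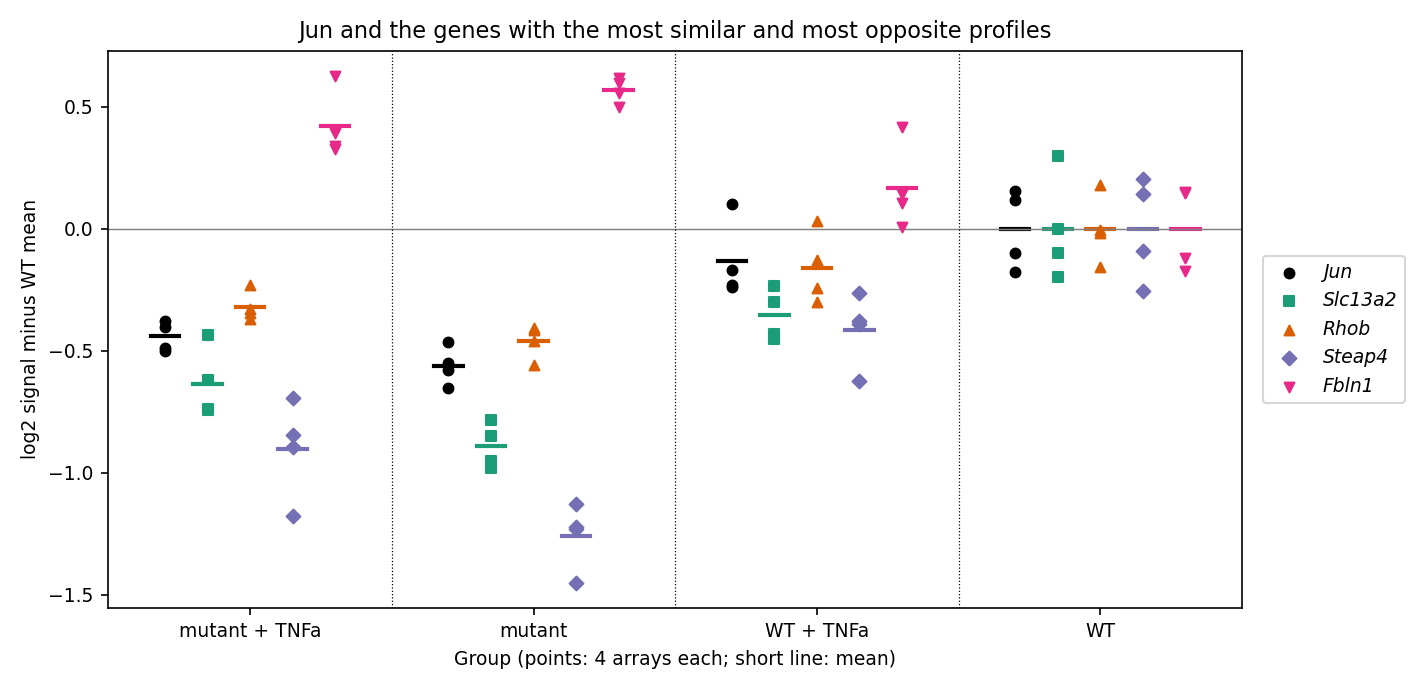
Log2 signal minus the WT mean (vertical axis) of Jun, the 3 genes most like it over the 16 arrays and the most opposite gene, by group. The genes like Jun lie lowest in mutant, where Steap4 averages 7.64 log2, and Fbln1 lies highest there.

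Other genes of the pathway were read from lists written from general knowledge. Of 17 tested partners of the basic leucine zipper class, 0 passed in either genotype comparison in limma. Of all tested genes 2.69% passed there with TNFa and 2.48% without. With TNFa 1 rose and 1 fell in mutant, where 3.51% of all tested genes rose and 2.47% fell. In WT 1 rose and 1 fell, where 5.03% of all rose and 5.75% fell. Batf2, a partner of Jun proteins first known from interferon responses, rose by 0.37 log2 in mutant (SE 0.095, adjusted p = 0.0254) and by 0.43 in WT (SE 0.095, adjusted p = 0.00567). Ddit3, which encodes the stress factor CHOP, fell by 0.30 in mutant (adjusted p = 0.033) and by 0.42 in WT (adjusted p = 0.00214).

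Of 23 tested kinases upstream of AP-1, 1 rose and 2 fell with TNFa in mutant, against 5.98% of all tested genes called there. In WT 2 rose and 1 fell, near the 10.8% of all genes called. Mapk11, which encodes p38 beta, averaged 9.51 ± 0.14 log2 in mutant + TNFa and 8.20 ± 0.16 in mutant, a 2.48-fold rise (adjusted p = 3.92e-08). It averaged 9.82 ± 0.15 in WT + TNFa and 8.60 ± 0.048 in WT, a 2.34-fold rise (adjusted p = 9.78e-08, SD and n = 4 throughout). Map3k5, which encodes the stress kinase ASK1, fell by 0.34 log2 in mutant (adjusted p = 0.0412) and by 0.57 in WT (adjusted p = 5.19e-04). Map2k6, which activates p38, fell by 0.34 in mutant (adjusted p = 0.0341), and Map3k7, which encodes TAK1, rose by 0.26 in WT (adjusted p = 0.00322). Map2k6 averaged 7.66 log2 in WT + TNFa and 7.91 in WT, and Map3k7 8.55 in mutant + TNFa and 8.44 in mutant, neither called. Averaged over genotypes both were called in the same directions (adjusted p = 0.00389 for Map2k6 and 0.00175 for Map3k7). Between genotypes 0 rose and 1 fell with TNFa, Map2k1, the ERK activator MEK1 (-0.23 log2 in mutant, adjusted p = 0.0473). Without TNFa 0 rose and 1 fell, Mapk11 (-0.39 log2, SE 0.090, adjusted p = 0.0238). Of all tested genes 1.13% were lower in mutant with TNFa and 1.48% without, and 1.56% and 1% were higher. The genotype effect averaged over TNFa states called 0 of 23 higher and 2 lower, against 2.52% and 3.36% of all tested genes. These 2 were Mapk11 (-0.35 log2, adjusted p = 0.00228) and Map2k1 (-0.20, adjusted p = 0.00817).

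Of 15 tested modifiers of Jun and Fos proteins, 0 passed with TNFa in mutant in limma, against 5.98% of all tested genes. In WT 2 fell, where 5.75% of all tested genes fell, the coactivator Ncoa1 (-0.58 log2, adjusted p = 0.00105) and the deubiquitinase Usp28 (-0.35, adjusted p = 0.00653). In mutant their means were also lower with TNFa, 9.47 against 9.65 log2 for Ncoa1 and 7.93 against 8.17 for Usp28. Both were called in the TNFa effect averaged over genotypes (adjusted p = 0.00132 for Ncoa1 and 0.00109 for Usp28). In the genotype comparisons 0 of the list passed, against 2.69% of all tested genes with TNFa and 2.48% without. Of 25 tested immediate-early genes and their SRF regulators, 3 rose and 0 fell with TNFa in mutant, where 3.51% of all tested genes rose and 2.47% fell. In WT 4 rose and 2 fell, where 5.03% of all rose and 5.75% fell. The median of the list was 0.0034 log2 in mutant and 0.0081 in WT, beside 0.0073 in mutant and 0.0096 in WT over all genes. Ier3, an apoptosis regulator, rose 1.87-fold in mutant (adjusted p = 5.83e-05) and 1.60-fold in WT (adjusted p = 7.09e-04), and Elk3, an SRF partner, 1.34-fold (adjusted p = 0.0354) and 1.43-fold (adjusted p = 0.00624). Klf4, a differentiation factor, fell in WT by 0.55 log2 (adjusted p = 3.34e-04). It averaged 10.45 log2 in mutant + TNFa and 10.56 in mutant, not called. Without TNFa, Ier3 was 0.45 log2 lower in mutant than in WT (adjusted p = 0.0437) and Ccn2, a matricellular gene, 0.28 higher (adjusted p = 0.0411). The genotype effect averaged over TNFa states called 0 of 25 higher and 2 lower, against 2.52% and 3.36% of all tested genes. These 2 were Ier3 (-0.34 log2, adjusted p = 0.0165) and Btg2 (-0.26, adjusted p = 0.0172).

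Of 39 textbook AP-1 targets, 34 were on the array and 21 bright enough to be tested. With TNFa 8 of 21 rose and 0 fell in mutant, with a median of 0.16 log2, beside 3.51% of all tested genes that rose and a median of 0.0073. In WT 7 rose and 0 fell, with a median of 0.12, beside 5.03% of all that rose and a median of 0.0096. The same genes answer other factors that TNFa activates, NF-kB among them. Those with the smallest p in mutant were Tnf, the integrins Itga2 and Itgb6, and the epithelial envelope gene Sprr1a. In WT they were Itgb6, Tnf, Itga2 and the adhesion receptor Cd44. The filter can admit a gene through its TNFa arrays alone. Sprr1a averaged 6.22 log2 in WT and 6.05 in mutant, below the filter's cutoffs of 6.40 to 6.56. With TNFa it averaged 6.72 in WT and 6.80 in mutant. Cxcl2 had 6.28 in WT and 6.31 in mutant, against 6.93 in WT + TNFa and 6.99 in mutant + TNFa. Targets that stayed dim were not tested, and the list was chosen with earlier results known. The count and median of the 21 may therefore be too high. Between genotypes without TNFa, Itga2 was 0.34 log2 lower in mutant (9.75 ± 0.075 in mutant and 10.09 ± 0.025 in WT, SD, n = 4 each, adjusted p = 0.0198) and the metalloprotease Mmp14 was 0.48 higher (adjusted p = 0.0254). With TNFa the metalloprotease Mmp7 was 0.74 higher in mutant + TNFa than in WT + TNFa (adjusted p = 0.0437), and 0 of 21 were lower. Of all tested genes 1.56% were higher and 1.13% lower there. In the genotype effect averaged over TNFa states, 3 of 21 were lower in mutant, against 3.36% of all tested genes. These were Itga2 (-0.27 log2, adjusted p = 0.00548), Itgb6 (-0.29, adjusted p = 0.0102) and Ptgs2 (-0.54, adjusted p = 0.016). Ptgs2 was dim in mutant, at 6.04 log2, and in mutant + TNFa, at 6.28. Mmp14 was the 1 gene higher (0.37, adjusted p = 0.00776), against 2.52% of all.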

How the data were processed

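The authors deposited log2 signals per probe set, 1 column per sample. Per the labels' protocols, 400 ng of RNA was amplified and biotin-labelled, and per the submitters' processing notes RMA in Affymetrix Expression Console gave the values. Not given in the sources used here are software versions, array design and genome build. The number of arrays limits the precision. Of the probe sets, 18851 had 1 gene symbol in GEO's platform annotation, 974 had none and 0 had several. Each gene was read by its brightest probe set over 16 arrays, and genes above their array's 40th percentile on at least 4 arrays were tested.

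The 4 group means were compared in 1 limma 3.58.1 fit (R 4.3.3) with moderated, two-sided tests and Benjamini-Hochberg adjustment over 11766 genes, called under 0.05. There were 7 comparisons: 2 TNFa effects, 2 genotype effects, the difference of the TNFa effects and 2 averages. Errors are SE of the fit, SD is between arrays, and intervals cover 95%. The functions were tested on simulated data. Alternatives changed the filter, the probe set rule, the scaling, the variance model, the weights, the arrays used and the replicate block. The members and lists (9 lists, 183 entries) were chosen with earlier results of these data known. All 7 members are named. Beyond them up to 4 called genes per list and comparison and the 3 most alike and 1 most opposite gene per called member could be named.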

Additional observations from a re-analysis of the deposited data

Results flagged for a closer look

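The value of Fos on array mutant 3, 7.85 log2, stood apart from the other mutant arrays, which all lay at 8.13. The gap to the nearest of them took 98.0% of the group's range. The value of Jund on the same array, 9.63 log2, was also apart, with a gap of 84.4% of the range, although that range was small. Values were picked out by Dixon's 95% limit for 4 samples, 32 groups of 4 values were checked, and chance alone marks about 5% of them.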

How the results depend on the processing

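The lower Jun signal in mutant without TNFa kept its direction and its call in all 25 alternatives, from -0.62 to -0.51 log2 with adjusted p up to 0.00503. Averaged over TNFa states it was called in all 24, from -0.46 to -0.40 log2. Of 1225 values of the 7 genes under alternatives, 1160 kept direction and side of the threshold. Another 35 changed sign, none of them called, and the largest of these was 0.051 log2 in size. Many alternatives, such as the filters and leaving out an array of another group, left the compared values as they were. There the difference could not change, only its p. The probe set rule could change no member, since each has 1 probe set. These tallies therefore overstate how far the differences were tried.

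Counts of Jun and Fos genes called changed as follows. For TNFa in WT 1 was called, Fosl1, with the stricter filter, array weights and either replicate block, and 0 to 1 with single arrays left out, 1 being Fosl1 without WT 3 or WT + TNFa 1 and Fosl2 without WT + TNFa 4. For TNFa in mutant 1, Junb, was called with variance trend and robust moderation, array weights or only the groups compared, and 0 to 1 with arrays left out, 1 without WT + TNFa 4. For genotype with TNFa 1, Jun, was called with the stricter filter, array weights and the replicate block by number, and 0 to 1 with arrays left out, 1 being Fosl1 without WT + TNFa 1 and Fosl2 without WT + TNFa 4. For the averaged TNFa effect 1 to 2 were called with arrays left out, 2 without WT + TNFa 1. For the averaged genotype effect 1 was called, Jund being lost, with no filter and the replicate block by number, and 1 to 2 with arrays left out.

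Counts over all genes moved too. TNFa in WT called 720 genes in place of 1269 with only the groups compared. Array weights called 1095 in place of 704 for TNFa in mutant, 443 in place of 292 for genotype without TNFa, 617 in place of 317 for genotype with TNFa and 1072 in place of 692 for the averaged genotype effect. Genotype with TNFa called 185 with only the groups compared. With arrays left out the genotype counts were 191 to 339 with TNFa, below the main count by over 1.5 times without mutant + TNFa 1, 2 or 4, and 197 to 434 without TNFa. The difference of TNFa effects called 3 with the stricter filter, 5 with variance trend and robust moderation, 3 with array weights, 0 with either replicate block and 0 to 4 with arrays left out, moving without each array except WT 3, WT 4 and mutant 3. Positive pairs of members numbered 11 in place of 18 without WT + TNFa 4. Fosb was not tested with the stricter filter. The cause of these changes was not tested.

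Sign changes in uncalled values were small. With array weights TNFa in WT gave -0.0039 log2 for Jund, -0.051 for Fos and 0.017 for Fosb, genotype without TNFa gave 0.0053 for Fosl2, and the averaged genotype effect 0.021 for Junb. Quantile normalization gave 0.012 for Fosl2 without TNFa and 0.0065 for Junb on average. With arrays left out, TNFa in WT ranged from -0.051 to 0.078 for Jund, -0.033 to 0.11 for Fos and -0.10 to 0.034 for Fosb, and TNFa in mutant from -0.032 to 0.0088 for Fosl1. Genotype without TNFa ranged from -0.080 to 0.025 for Fosb, -0.026 to 0.085 for Fosl1 and -0.042 to 0.027 for Fosl2, and genotype with TNFa from -0.038 to 0.089 for Junb. The averaged TNFa effect ranged from -0.046 to 0.019 for Jun and -0.058 to 0.0069 for Jund, and the averaged genotype effect from -0.043 to 0.021 for Junb.

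Whether the replicate numbers pair the samples could not be decided from 4 same-numbered pairs of arrays in each comparison. Deviations of same-numbered arrays correlated between -0.091 and 0.19 for mutant + TNFa with mutant and between -0.30 and 0.0088 for WT + TNFa with WT. They were between -0.10 and 0.25 for mutant + TNFa with WT + TNFa, where 2 of 4 were over 0.1, and between -0.31 and -0.035 for mutant with WT. Beyond the counts above, the replicate block changed no other call of a Jun or Fos gene.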

Other observations

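The genes whose profiles were most like that of Junb over the 16 arrays were Plxnb2, a semaphorin receptor (r = 0.91), Smox, a spermine oxidase (r = 0.86), and Micall2, a junction protein (r = 0.86), and the most opposite was Pcbd2 (r = -0.85). Within groups their r with Junb was 0.86, 0.70, 0.70 and -0.80. Micall2 averaged 9.60 log2 in mutant + TNFa, 9.18 in mutant, 9.60 in WT + TNFa and 9.23 in WT.

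For Jund they were Bcr, a GTPase regulator (r = 0.89), Paqr5, a progestin receptor family member (r = 0.85), and Aifm2, an oxidoreductase that protects from lipid peroxidation (r = 0.84), and the most opposite was the ETS factor Etv1 (r = -0.83). Paqr5 averaged 8.90 log2 in mutant + TNFa, 8.89 in mutant, 9.26 in WT + TNFa and 9.17 in WT.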
